A study of Rattus norvegicus with 27 samples.

Results

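The genes described here are the mitochondrial enzymes that let heart muscle burn ketone bodies, Bdh1, Oxct1 and Acat1, taken as every array probe whose annotated gene symbol is one of these names. The deposited table lists 22226 probes, of which 2 met this rule, ILMN_65020 for Bdh1 and ILMN_52763 for Acat1, so 2 of the 3 genes had a probe, among 12978 genes with one. The genes were chosen by name with their differences from filtered air on these same arrays already known, so those differences are a description. Oxct1 was not analysed here, because no probe carried its symbol in the annotation used. Whole-heart RNA of male Fisher 344 rats, which entered the study at 4 weeks of age, was hybridised to bead arrays made by Illumina. For 3 months the rats inhaled filtered air (7 arrays), coarse particles (6 arrays), fine particles (6 arrays) or ultrafine particles (8 arrays). All groups share strain, sex, age and duration, and no genetic change is named for any group. Particle concentrations are not stated in the labels. Each array was taken as 1 rat. The labels do not say that the arrays came from separate animals, so a p-value measures only the spread between these arrays. All 3 comparisons with filtered air share the same control arrays. The question, as the series title puts it, was whether long exposure to airborne particles changes gene expression in the heart.

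Ketone bodies are made in liver mitochondria from acetyl-CoA during fasting and are carried in blood to the heart, brain and muscle as acetoacetate and beta-hydroxybutyrate. In the heart, Bdh1, the beta-hydroxybutyrate dehydrogenase of the inner mitochondrial membrane, oxidises beta-hydroxybutyrate to acetoacetate with NAD as the acceptor. Oxct1, the succinyl-CoA transferase, then moves CoA onto acetoacetate, and Acat1, the mitochondrial acetoacetyl-CoA thiolase, splits the product into acetyl-CoA for the citrate cycle. Acat1 also serves the last step of isoleucine breakdown. Ketone oxidation is a known fuel route of the fasting and of the failing heart.

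The start site windows of both measured genes are shown because the levels of their transcripts are compared below. Each sequence is that of RefSeq for the GRCr8 assembly, from 250 bases before to 50 bases after the start site that the RefSeq table gives, written 5′ to 3′ on the minus strand of the chromosome. The Bdh1 window is chr11:82842587-82842886 and the Acat1 window is chr8:62904993-62905292. The start site given for Bdh1 lies inside the annotated span of the gene and not at its outer end, so this window need not be the promoter of the transcript measured, and the positions below count from that inner start. Capitals mark the matches, on either strand, to the GC box GGGCGG (read CCGCCC on the other strand) and to the CCAAT box CCAAT (read ATTGG on the other strand).
Bdh1: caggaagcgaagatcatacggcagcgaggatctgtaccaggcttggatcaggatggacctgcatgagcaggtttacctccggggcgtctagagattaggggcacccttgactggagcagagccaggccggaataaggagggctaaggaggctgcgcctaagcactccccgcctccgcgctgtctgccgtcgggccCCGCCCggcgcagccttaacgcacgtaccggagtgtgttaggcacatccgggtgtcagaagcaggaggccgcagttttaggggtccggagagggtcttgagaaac
Acat1: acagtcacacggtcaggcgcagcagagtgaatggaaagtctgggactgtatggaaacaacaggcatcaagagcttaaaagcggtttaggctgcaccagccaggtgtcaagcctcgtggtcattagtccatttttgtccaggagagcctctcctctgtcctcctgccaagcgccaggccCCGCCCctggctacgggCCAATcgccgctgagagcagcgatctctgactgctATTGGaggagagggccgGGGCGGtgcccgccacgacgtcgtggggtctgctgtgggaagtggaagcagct
In the Bdh1 window there was 1 GC box, whose first base lay at -55 from the start site. The Acat1 window had 2 GC boxes, at -72 and -3, and 2 CCAAT boxes, at -55 and -20, and none of these matches overlapped. The GC box letters occur in 33.1% and the CCAAT letters in 37.5% of all 33469 rat promoters of this length, and the Bdh1 window had 0 CCAAT matches. The windows are GC-rich, at 62.0% GC for Bdh1 and 60.0% for Acat1, against a median of 51.7% over all promoters. The letters of a TATA box (TATAAA, in 14.2% of promoters), of a nuclear receptor site (AGGTCA, 16.2%), of its direct repeat with 1 base between the copies, the element of PPAR and RXR receptors (0.0538%), and of an oestrogen-related receptor element (TCAAGGTCA, 0.433%) matched in neither window on either strand. The same held for the palindromic NRF1 site (4.25%), a cAMP response site (TGACG, 21.2%) and an E-box (CACGTG, 6.42%). The nuclear receptor site is part of both longer receptor motifs, and a match or its lack describes letters only.

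Levels are given on the scale of the deposited table, taken as log2. A difference of 1 is a doubling only if the scale is plain log2, which no source states. Under a variance stabilizing transform the differences of dim probes would be shrunk, so the folds below hold for plain log2 only. The levels of different probes are not compared with each other. Averaged over all 27 arrays, the Bdh1 probe had a level of 7.41, above 84.3% of the probes of the table, and the Acat1 probe had a level of 9.67, above 96.2% of them. A level above other probes does not give the abundance of a transcript, because probes bind with unequal strength. The mean over 10 cardiomyocyte probes was high in all hearts, between 11.57 and 12.72. Not every marker in it was high. Actc1 had group means of 7.17 with filtered air, 6.70 with coarse, 7.09 with fine and 6.77 with ultrafine particles. Of the liver markers listed, Alb, Apoa1, Apoc3 and Cps1 had no probe in the annotation used and Fgb did not pass the filter, leaving Ttr, with levels between 5.96 and 7.22. RNA of lymphocytes was visible on a few arrays. The mean level of 16 lymphocyte and thymocyte probes was above 7 on 6 arrays, filtered air 1, coarse 1, coarse 2, fine 2, ultrafine 2 and ultrafine 7, where it ran from 7.72 to 9.79, and it lay between 6.05 and 6.88 on the other 21. Ultrafine 8 stood apart in another way, with 6.38 for the lymphocyte probes, the lowest cardiomyocyte mean of all arrays, 11.57, and a median correlation with the other arrays of 0.913, where the other arrays without lymphocyte RNA had 0.972 to 0.990. The results are therefore given for all 27 arrays and again for the 20 that remain without these 7, a set chosen after seeing the data. The planned rule was stricter. It takes off coarse 5 and fine 4 as well, with lymphocyte means of 6.88 and 6.79, and leaves 18.

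Bdh1 was lower, on the average, in hearts of rats that inhaled particles of any size. With filtered air the 7 arrays read 7.17, 7.86, 7.40, 7.84, 7.66, 7.84 and 8.18 in the order of their replicate numbers, with a mean of 7.71 ± 0.33 (SD, n = 7). With coarse particles the arrays read 6.72, 6.71, 7.56, 7.58, 7.25 and 7.46, with a mean of 7.21 ± 0.40 (SD, n = 6). All 6 coarse arrays lay below the mean of filtered air and 2 of them, coarse 1 and coarse 2, lay below every filtered air array. With fine particles the levels were 7.32, 6.76, 7.69, 7.47, 7.61 and 7.62, with a mean of 7.41 ± 0.35 (SD, n = 6). All 6 fine arrays were below the filtered air mean, and 5 of the 6 were within the range of filtered air, fine 2 being the exception. With ultrafine particles the levels were 7.53, 6.91, 7.19, 7.12, 6.60, 7.46, 7.03 and 8.42, with a mean of 7.28 ± 0.54 (SD, n = 8). Here 7 of the 8 arrays lay below the filtered air mean and 4 lay below every filtered air array, while ultrafine 8 gave the highest Bdh1 level of the study. Every exposed group overlapped with filtered air.

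Acat1 was also lower on the average in each exposed group, with another order of the particle sizes. The filtered air arrays read 9.53, 10.25, 10.11, 10.05, 9.54, 10.40 and 10.35, with a mean of 10.03 ± 0.36 (SD, n = 7). The coarse arrays read 8.50, 9.41, 9.97, 10.15, 9.24 and 9.79, with a mean of 9.51 ± 0.60 (SD, n = 6). Of these, 5 of 6 were below the mean of filtered air, and coarse 1, coarse 2 and coarse 5 were below all its arrays. The fine arrays read 9.79, 9.17, 9.59, 9.02, 9.32 and 9.71, with a mean of 9.43 ± 0.31 (SD, n = 6). All 6 fine arrays were below the mean of filtered air, 3 of them below its lowest array, and the group was the least scattered. The ultrafine arrays read 10.55, 9.49, 10.53, 10.05, 9.29, 9.78, 8.61 and 8.84, with a mean of 9.64 ± 0.72 (SD, n = 8). The ultrafine group was the most scattered, with 5 of 8 arrays below the filtered air mean, 4 below every filtered air array (ultrafine 2, 5, 7 and 8) and 2 above every one (ultrafine 1 and 3). On ultrafine 8, which had the highest Bdh1 level, Acat1 was at 8.84, lower than on all other ultrafine arrays but ultrafine 7.

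**Figure D1:**
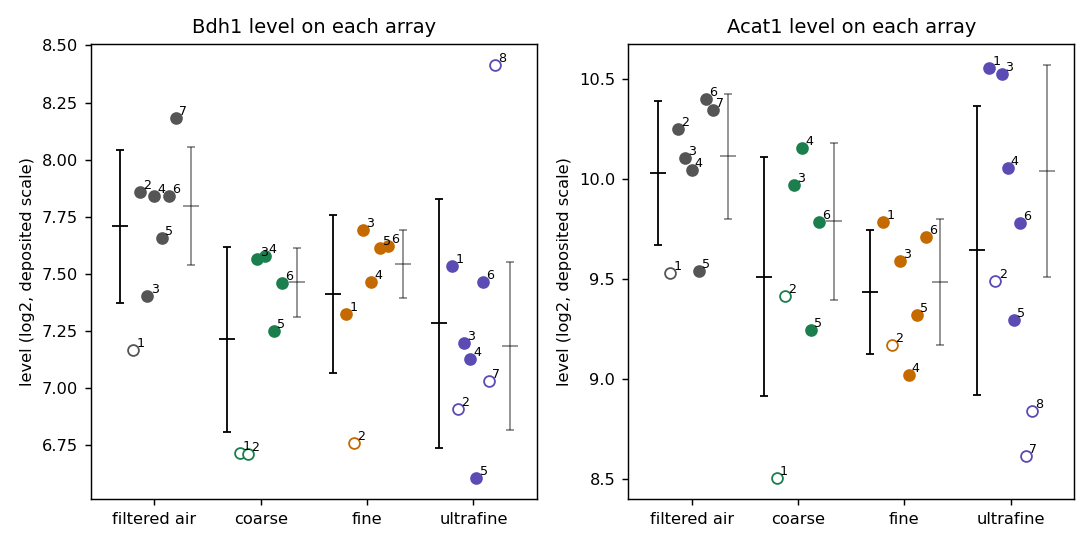
Levels of Bdh1 and Acat1 on each of the 27 arrays (vertical axis, log2 scale of the deposited table) by exposure group, each point 1 array with its replicate number. Open points are the 7 arrays with a lymphocyte mean above 7 or a low correlation. The black marks are the mean ± SD of all arrays of a group and the grey marks the mean ± SD of the 20 other arrays. All groups overlap, and ultrafine 8 has the highest Bdh1 level, 8.42, and a low Acat1 level, 8.84.

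The differences between groups are given as log2 differences with the standard error of the limma fit across all 11657 probes kept. No p-value is given for Bdh1 or Acat1, because both were picked with results of these arrays known. Over 27 arrays, Bdh1 differed from filtered air by -0.49 ± 0.23 with coarse particles (1.41-fold lower), by -0.29 ± 0.23 with fine particles (1.23-fold lower) and by -0.42 ± 0.21 with ultrafine particles (1.34-fold lower). Acat1 differed by -0.52 ± 0.29 with coarse particles (1.43-fold lower), by -0.60 ± 0.29 with fine particles (1.51-fold lower) and by -0.39 ± 0.27 with ultrafine particles (1.31-fold lower). Each of these 6 differences was between 1 and 3 times its standard error. At an adjusted p under 0.05 in either direction, 0 of 2 members were called in each comparison, where the share of all kept probes called was 0.00858% with coarse, 0% with fine and 0.0686% with ultrafine particles. Without adjustment, limma put 475, 697 and 615 of all probes under 0.05 in these comparisons. The median difference over all kept probes was within 0.01 of 0 in each.

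Between the particle sizes the differences in Bdh1 over 27 arrays were -0.20 ± 0.24 for coarse minus fine, -0.13 ± 0.22 for ultrafine minus fine and -0.07 ± 0.22 for coarse minus ultrafine. For Acat1 they were 0.08 ± 0.30, 0.21 ± 0.28 and -0.13 ± 0.28 in the same order. All were smaller than their standard errors. Here too 0 of 2 members were called, beside 0.0257% of probes for coarse minus fine, 0.197% for ultrafine minus fine and 0% for coarse minus ultrafine, where 299 probes were under an unadjusted 0.05 in the limma fit. From the highest mean to the lowest, Bdh1 ran from filtered air to fine, ultrafine and coarse, and Acat1 from filtered air to ultrafine, coarse and fine. Each step between neighbours in these orders was under the larger SD of the pair, which is the scatter of single arrays and not the error of a mean.

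The 6 arrays with a lymphocyte mean above 7 had low levels of both genes. On these 6 arrays Bdh1 ran from 6.71 through a median of 6.83 to 7.17, and on the other 21 from 6.60 through 7.56 to 8.42. Acat1 ran from 8.50 through 9.29 to 9.53 on the 6 arrays and from 8.84 through 9.79 to 10.55 on the others. Filtered air 1, fine 2 and the pair coarse 1 and coarse 2 had the lowest Bdh1 levels of their groups, and among ultrafine arrays only ultrafine 5 was lower than ultrafine 2 and ultrafine 7. The defining T cell marker Cd3d ran from 9.57 to 12.16 on the 6 arrays and from 5.87 to 7.89 on the others. For Rag1, which cuts the antigen receptor genes of developing lymphocytes, these ranges were 8.31 to 11.28 and 5.56 to 7.13. The cardiomyocyte mean ran from 11.72 to 12.57 on the 6 arrays and from 12.44 to 12.72 on the other arrays without ultrafine 8. Such arrays made up 1 of 7 in filtered air, 2 of 6 with coarse, 1 of 6 with fine and 2 of 8 with ultrafine particles. The part of this RNA in the differences between groups was not tested. In whole hearts, fewer cells of a type and less RNA per cell cannot be told apart.

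**Figure D2:**
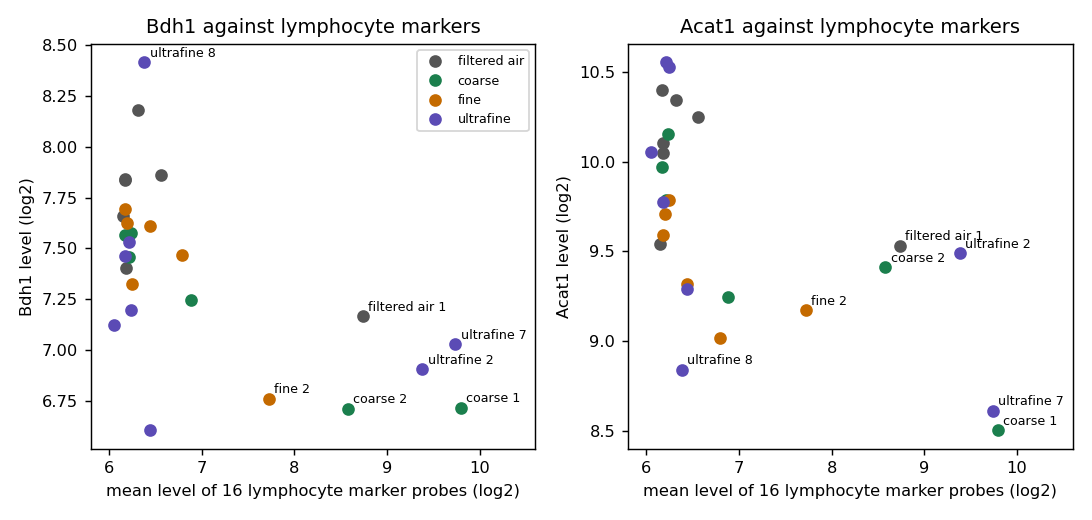
Levels of Bdh1 and Acat1 on each array (vertical axes, log2) against the mean level of 16 lymphocyte and thymocyte probes on the same array (horizontal axis, log2), coloured by exposure group, with the 7 arrays that were set aside named. The 6 named arrays to the right have Bdh1 levels of 7.17 and less and Acat1 levels of 9.53 and less, while ultrafine 8 has a lymphocyte mean of 6.38.

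The 20 arrays left are 6 with filtered air, 4 with coarse, 5 with fine and 5 with ultrafine particles. Among them Bdh1 was lowest with ultrafine particles and Acat1 with fine particles. The Bdh1 mean was 7.80 ± 0.26 (SD, n = 6) with filtered air, 7.46 ± 0.15 (n = 4) with coarse, 7.54 ± 0.15 (n = 5) with fine and 7.18 ± 0.37 (n = 5) with ultrafine particles. The ultrafine difference from filtered air was -0.61 ± 0.14, or 1.53-fold lower, with all 5 arrays below the filtered air mean and 3 below every filtered air array. With coarse particles the difference was -0.34 ± 0.15 and with fine particles -0.25 ± 0.14, with all 4 and all 5 arrays below that mean. The Acat1 mean was 10.11 ± 0.31 (SD, n = 6) with filtered air, 9.79 ± 0.39 (n = 4) with coarse, 9.49 ± 0.32 (n = 5) with fine and 10.04 ± 0.53 (n = 5) with ultrafine particles. Acat1 therefore differed from filtered air by -0.63 ± 0.21 with fine particles (1.55-fold lower, 5 of 5 arrays below the mean) and by -0.33 ± 0.23 with coarse particles (3 of 4 arrays). Its ultrafine difference was -0.07 ± 0.21, with 3 of 5 arrays below the mean. In ultrafine minus fine the 2 genes lay on opposite sides of 0, at -0.36 ± 0.15 for Bdh1 and 0.55 ± 0.22 for Acat1. The filtered air range still overlapped with that of each exposed group for both genes.

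Ultrafine 5, the lowest Bdh1 array, also carried raised markers of other tissue. Its mean over 6 skeletal muscle probes was 6.93, where all other arrays except coarse 6, at 8.72, ran from 5.94 to 6.14. Its means were 7.98 for macrophage, 7.77 for endothelial and 12.46 for red cell probes, the last 2 the highest of all arrays. Without it as well, in 19 arrays, the Bdh1 difference with ultrafine particles was -0.47 ± 0.12, or 1.38-fold lower, and that of Acat1 was 0.11 ± 0.20, now above 0. The part of other tissue in these values was not tested.

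In these 20 arrays 1 of 2 members, Bdh1, was called lower in ultrafine minus filtered air. There 0.721% of probes were called in either direction and 0.24% lower. Bdh1 was picked with its differences already known, and the 20 arrays were set after seeing the data, so this call is a description only. The call was lost without ultrafine 5, with 0 of 2 members called beside 0.695% of probes. In the other comparisons 0 of 2 were called, beside 0.377% of probes with coarse and 0% with fine particles against filtered air, 0.275% in coarse minus fine, 1.11% in ultrafine minus fine and 0% in coarse minus ultrafine. Unadjusted, limma put 1417 probes under 0.05 in fine minus filtered air and 884 in coarse minus ultrafine. In the 18 arrays of the stricter rule the Bdh1 difference with ultrafine particles was again -0.61 ± 0.14, on the same ultrafine and filtered air arrays, and 0 of 2 members were called, beside 0.575% of probes. The shares of probes called in the other comparisons of that set, each also with 0 of 2 members, were 0.24% for coarse and 0% for fine against filtered air, 0.146% for coarse minus fine, 0.463% for ultrafine minus fine and 0% for coarse minus ultrafine. The coarse and fine differences there were -0.26 ± 0.17 and -0.23 ± 0.15 for Bdh1 and -0.14 ± 0.23 and -0.51 ± 0.21 for Acat1. With 3 coarse arrays left, all within the filtered air range for both genes, this set says least about coarse particles. The order of the Bdh1 means became filtered air, fine, coarse and ultrafine in both smaller sets, and the order for Acat1 was filtered air, ultrafine, coarse and fine in all sets. Each step was under the larger SD of its pair, except that from coarse to fine for Acat1 in the 18 arrays, which was 0.37 with SDs of 0.18 and 0.20.

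**Figure D3:**
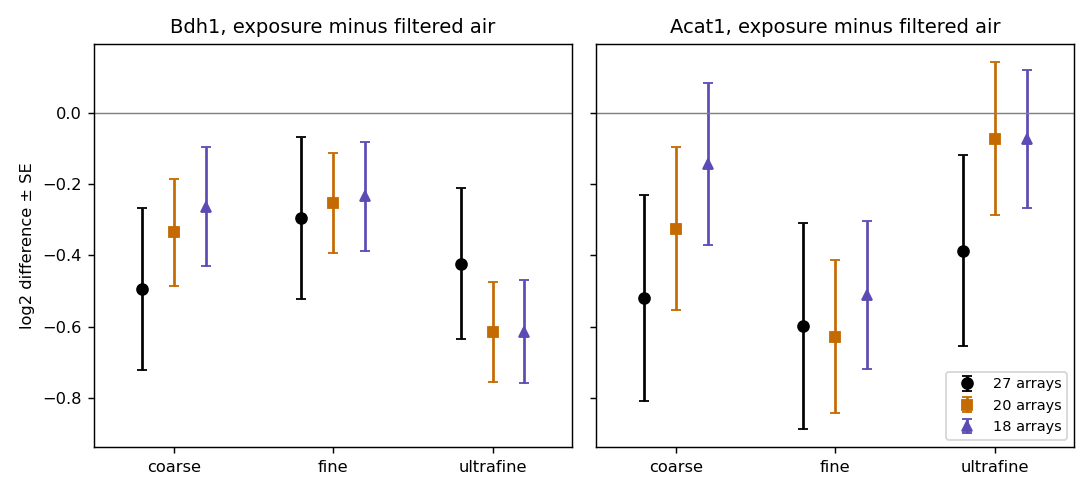
Log2 differences of Bdh1 and Acat1 between each particle size and filtered air (vertical axis, with the SE of the limma fit as bars) in all 27 arrays, in the 20 arrays and in the 18 arrays of the stricter rule. All values lie below 0, Bdh1 moves to -0.61 with ultrafine particles in both smaller sets, and Acat1 moves to -0.07 there.

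The relation of the 2 genes across arrays varied with the arrays and values used, with r from 0.10 to 0.59. It is given as a description without a p-value. Over 27 arrays Pearson's r between the Bdh1 and Acat1 levels was 0.38 and Spearman's rho 0.41, and r was 0.59 without ultrafine 8 and ultrafine 5, the arrays farthest from the Bdh1 median. Of the 8030 other kept probes with a gene symbol, 29.2% had a higher r with Bdh1 than Acat1 had, and 22.6% a higher r with Acat1 than Bdh1 had. Levels in the 20 arrays gave an r of 0.36 and a rho of 0.23, and r was 0.10 without ultrafine 5 and filtered air 7. After each group mean was taken off, r was 0.28 and rho 0.46 over 27 arrays, and r was 0.57 and rho 0.49 in the 20 arrays, or 0.45 without ultrafine 5 and filtered air 3. By these deviations in the 20 arrays, 11.6% of named probes had a higher r with Acat1 than Bdh1 had. The arrays of a group share their exposure, and 6 of the 27 share high lymphocyte RNA.

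The genes whose levels followed Bdh1 most closely over 27 arrays were Coq3 (r = 0.90), a methyltransferase of coenzyme Q synthesis, Mrps14 (0.89), a protein of the mitochondrial ribosome, Cul2 (0.89), a ubiquitin ligase scaffold, Ndufaf7 (0.89), an assembly factor of respiratory complex I, and Bche (0.89), butyrylcholinesterase. For Acat1 they were Hccs (0.89), which attaches haem to cytochrome c, the RNA-binding protein Cpeb4 (0.87), the matrix proteoglycan Dcn (0.87), the short-chain reductase Dhrs4 (0.86) and Acadl (0.85), the long-chain acyl-CoA dehydrogenase. The names changed when the arrays that stand apart were left out and group means were taken off (18 arrays). Nearest to Bdh1 were then Supt20h (0.94), a subunit of a histone acetylase complex, the splicing factor Rbm39 (0.93), the aspartate aminotransferase Got1 (0.91), Taf1d (0.91) of the RNA polymerase I machinery and Scp2 (0.91), a peroxisomal thiolase and sterol carrier. Nearest to Acat1 were Aagab (0.93), the autophagy protein Wipi1 (0.92), the splicing protein Snrnp48 (0.90), the dynactin subunit Dctn3 (0.89) and the phosphate transporter Slc20a2 (0.89). The 2 sets of 5 names shared 0 genes for either member.

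None of the other measured ketone pathway genes was called against filtered air in the 27 or in the 20 arrays. The list named 18 genes of ketone body metabolism, transport and control, of which 12 had a probe and 9 passed the filter on low levels. In the 27 arrays 0 of 9 were called higher and 0 of 9 lower with any particle size against filtered air, and the same was so in the 20 arrays. At the shares of all probes called there (0.00858%, 0% and 0.0686% with coarse, fine and ultrafine particles over 27 arrays), a count of 0 among 9 is near the background and says little about the list. Without adjustment, 1, 0 and 0 of the 9 were under 0.05 in limma with coarse, fine and ultrafine particles over 27 arrays, and 1, 1 and 2 in the 20 arrays. The median difference of the 9 was -0.03 with coarse, 0.01 with fine and -0.09 with ultrafine particles, where 5, 3 and 7 of the 9 were below 0. In the 20 arrays the medians were -0.03, -0.02 and -0.05, with 5, 5 and 9 of the 9 below 0, beside 48.6%, 48.5% and 50.8% of all kept probes. With ultrafine minus fine 9 of 9 were below 0 there too, beside 51.5% of all kept probes. Their median was -0.08, with values from -0.35 to -0.002, and both counts of 9 rest on the same ultrafine arrays. Oxct2a, Oxct2b, Slc16a6 and Slc16a7 were among the listed genes with no probe in the annotation used here. The receptors Hcar2, for beta-hydroxybutyrate, and Ffar3, for short-chain fatty acids, and the fasting hormone Fgf21 had a probe that did not pass the filter.

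Among the enzymes, Bdh2, the cytosolic relative of Bdh1, differed from filtered air by -0.13 ± 0.10 with coarse, 0.03 ± 0.10 with fine and -0.16 ± 0.10 with ultrafine particles. Aacs, which activates acetoacetate in the cytosol for lipid synthesis, differed by 0.21 ± 0.26, -0.03 ± 0.26 and 0.16 ± 0.24. On the 6 arrays with high lymphocyte RNA, Aacs ran from 6.43 to 7.52, above all other arrays, which ran from 5.86 to 6.21. Without those arrays and ultrafine 8 its differences were -0.03 ± 0.06, 0.01 ± 0.06 and -0.12 ± 0.06. Acat2, the cytosolic thiolase that feeds cholesterol synthesis, differed by 0.02 ± 0.24, -0.05 ± 0.24 and -0.09 ± 0.22 over 27 arrays. In the 20 arrays Acat2 with ultrafine particles was at -0.31 ± 0.10, with 5 of 5 arrays below the filtered air mean and an adjusted p of 0.26 in limma, against 0.94 over 27 arrays.

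The carriers of ketone bodies across the cell membrane were not called in any comparison. Slc16a1, the main monocarboxylate transporter of heart muscle, differed by 0.10 ± 0.17, 0.01 ± 0.17 and 0.06 ± 0.16 with coarse, fine and ultrafine particles over 27 arrays, and by 0.24 ± 0.12 with coarse particles in the 20 arrays (4 of 4 above the filtered air mean). Slc16a3, the transporter typical of glycolytic cells, differed by 0.05 ± 0.08, 0.01 ± 0.08 and -0.01 ± 0.07. Bsg, the chaperone that brings both to the membrane, differed by -0.20 ± 0.17, 0.30 ± 0.17 and -0.23 ± 0.16, and the lowest adjusted p of these 3 values in limma was 0.88. Between sizes Bsg differed more, by -0.50 ± 0.17 in coarse minus fine and -0.53 ± 0.16 in ultrafine minus fine, with 6 of 6 and 7 of 8 arrays below the fine mean and adjusted p-values of 0.74 and 0.16 in limma. In the 20 arrays these were -0.37 ± 0.13 and -0.35 ± 0.13. Of the regulators, Ppargc1a, a coactivator of mitochondrial genes, differed by -0.26 ± 0.12 with coarse particles (6 of 6 arrays below the filtered air mean), -0.02 ± 0.12 with fine and -0.19 ± 0.11 with ultrafine particles. Ppara, the fatty acid receptor that induces ketone making in liver, was at -0.03 ± 0.05, 0.04 ± 0.05 and -0.03 ± 0.04. Sirt3, the mitochondrial deacetylase, was at -0.13 ± 0.24, 0.02 ± 0.24 and -0.12 ± 0.22.

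The relatives of Acat1 in the thiolase family lay on both sides of 0. Of 6 listed, all 6 had a probe and 5 passed the filter, Acaa1b being the exception. The 5 include Acat2, which is counted in the ketone list too. In each comparison with filtered air 0 of 5 were called in either direction in the 27 arrays. The shares of all kept probes called were 0.00858%, 0% and 0.0686% with coarse, fine and ultrafine particles. A count of 0 among 5 is near that background and says little about the family. Under an unadjusted 0.05 in limma there were 0 in the 27 arrays, and 1, 0 and 1 in the 20 arrays. Their medians were -0.01 with coarse, -0.05 with fine and -0.04 with ultrafine particles. Acaa2, which ends mitochondrial beta oxidation of medium chains, differed by 0.15 ± 0.24, 0.00 ± 0.24 and 0.10 ± 0.22. Hadhb, the thiolase subunit of the trifunctional protein, was at -0.01 ± 0.30, -0.32 ± 0.30 and -0.12 ± 0.28. The peroxisomal Acaa1a was at -0.01 ± 0.11, 0.03 ± 0.11 and 0.14 ± 0.11. Scp2 was at -0.13 ± 0.33, -0.48 ± 0.33 and -0.04 ± 0.31, its fine value being near that of Acat1. In the 20 arrays Scp2 was at -0.41 ± 0.23 and Hadhb at -0.29 ± 0.19 with fine particles, each with 5 of 5 arrays below the filtered air mean. With coarse particles there Acaa2 was at 0.41 ± 0.14, Hadhb at 0.29 ± 0.21 and Scp2 at 0.11 ± 0.25, and with ultrafine particles Acaa2 was at 0.26 ± 0.13. None of these was called. The list medians in the 20 arrays were 0.11 with coarse, -0.05 with fine and -0.03 with ultrafine particles.

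**Figure D4:**
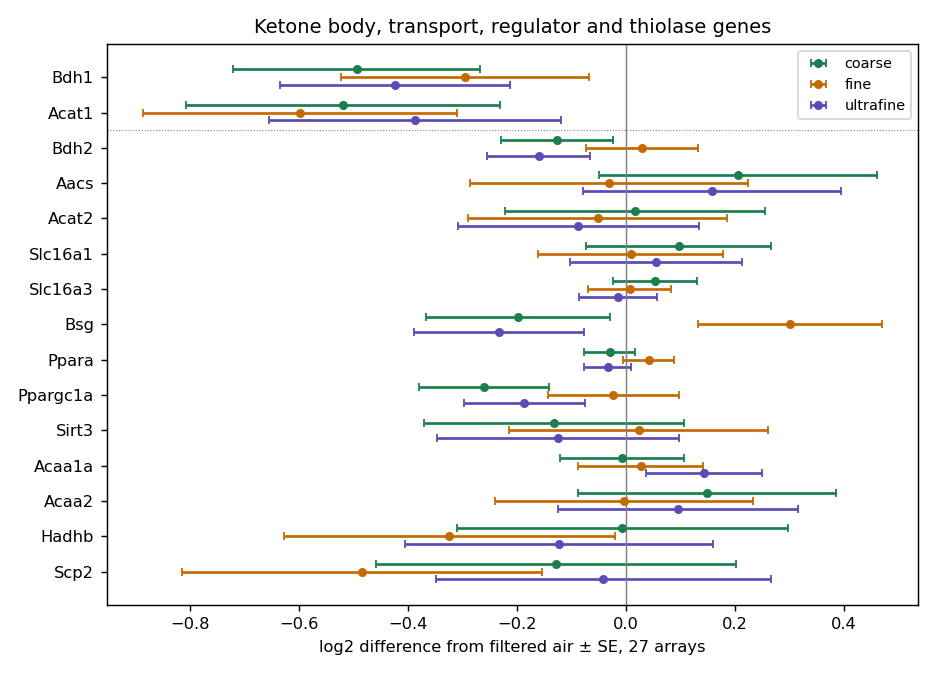
Log2 differences from filtered air (horizontal axis, with the SE of the limma fit as bars) over 27 arrays for Bdh1 and Acat1, above the dotted line, and for the measured genes of ketone use, transport, control and the thiolase family below it, coloured by particle size. Bdh1 and Acat1 lie between -0.60 and -0.29, and the other genes lie on both sides of 0.

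Of the lists for neighbouring pathways, that for fatty acid oxidation, which also holds regulators such as Pdk4 and Angptl4, had genes called against filtered air. Branched-chain amino acid breakdown and the citrate cycle had none in the 27 or in the 20 arrays, which for lists of their size is near the share of all probes called. Of 22 genes of branched-chain amino acid breakdown, the source of the isoleucine products that Acat1 cleaves, 16 were measured, and limma called 0 against filtered air and put 0, 0 and 1 under an unadjusted 0.05, with medians of -0.15, -0.10 and -0.13 with coarse, fine and ultrafine particles. In the 27 arrays 16, 13 and 16 of the 16 were below 0, while 51.6%, 49.2% and 48.3% of all kept probes were. In the 20 arrays the coarse count was 8 of 16 with a median of 0.00, and the ultrafine count 14 of 16 with a median of -0.12. Ppm1k, the phosphatase that activates the branched-chain ketoacid dehydrogenase, had the lowest adjusted p of its list with ultrafine particles, at -0.19 ± 0.07 with 8 of 8 arrays below the filtered air mean and an adjusted p of 0.75 in limma. Of 17 citrate cycle genes, which take up the acetyl-CoA, 14 were measured, with 0 called and 0, 0 and 1 under an unadjusted 0.05 in limma. Sucla2, a subunit of the ligase that uses succinyl-CoA, the CoA donor of ketone use, was at -0.52 ± 0.35 with fine particles, and Sdha, a subunit of succinate dehydrogenase, was at -0.56 ± 0.40 with ultrafine particles, or -0.02 ± 0.23 in the 20 arrays.

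Fatty acid oxidation supplies the heart with acetyl-CoA beside ketone bodies. Its list, which includes regulators, had 24 measured genes of 26. In the 27 arrays 1 of 24 was called higher and 0 lower with ultrafine particles, beside 0.0686% of all kept probes, and 0 were called with coarse or fine particles. The gene called was Acot1, an acyl-CoA thioesterase induced by PPAR alpha, at 0.47 ± 0.09 with 8 of 8 arrays above the filtered air mean (limma, adjusted p = 0.046). No probe was called in that comparison without any 1 of filtered air 2 to 7 or without ultrafine 4. In the 20 arrays 5 of 24 were called higher with ultrafine particles and 2 of 24 with coarse particles, and 0 were called lower, beside 0.721% and 0.377% of all kept probes called there. With ultrafine particles these were Acot1 at 0.57 ± 0.06, Pdk4, the kinase that turns off pyruvate dehydrogenase, at 1.81 ± 0.23, the mitochondrial uncoupling protein Ucp3 at 0.59 ± 0.09, Angptl4, an inhibitor of lipoprotein lipase, at 0.95 ± 0.16 and Mlycd, which degrades malonyl-CoA, at 0.61 ± 0.14, and with coarse particles Acot1 at 0.52 ± 0.07 and Pdk4 at 1.58 ± 0.24. In that set Bdh1 was at -0.61 with ultrafine and -0.34 with coarse particles, and Acat1 at -0.07 and -0.33. The median of all 24 genes there was 0.12 with ultrafine and 0.21 with coarse particles. Without ultrafine 5 as well, in 19 arrays, Bdh1 was at -0.47 and Acat1 at 0.11 with ultrafine particles. The limma fit adjusted these p-values over all kept probes. The list was chosen with earlier results of these data known, and the 20 arrays after seeing the data, so the counts are a description. None of the genes called against filtered air was an enzyme of the beta oxidation steps themselves.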

How the data were processed

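Biotin-labelled RNA of rat hearts was read on Illumina bead arrays. Per the labels, the authors hybridised 32 arrays, dropped 5 with poor signal and used lumi 1.5.17 at default settings. The deposited values of 27 arrays were taken as log2. No source says if this was plain log2 or a variance stabilizing transform, which shrinks differences of dim probes. Sorted levels were equal between arrays to within 0.0185, as quantile normalization leaves them. Every column matched a sample (0 unmatched). Detection p-values were not used. The number of arrays limits precision.

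Among 22226 probes, 13192 had 1 gene symbol, 0 several and 9034 none. By gene identifier 13151 were updated through the RefSeq table of GRCr8 and 41 were not found there. The labels give 11657 probes after the authors' filter on detection, and the same number was kept here by highest mean (at least 5.79). One limma 3.58.1 model of the 4 groups (lmFit, eBayes, R 4.3.3) was two-sided, with Benjamini-Hochberg adjustment over kept probes in each comparison. The fit was tested on simulated data.

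Bdh1, Oxct1, Acat1 and all gene lists were chosen with earlier results of these data known. Named genes are every measured gene of the ketone pathway and thiolase lists, genes called and up to 4 with the smallest p in the other lists, the 5 probes most correlated with each gene in either set of values, and up to 3 markers of a cell type. Arrays stood apart with a lymphocyte mean over 3 median absolute deviations above the median, or with a median correlation under 0.949 (1.5 interquartile ranges below the lower quartile), which leaves 18 arrays. The set of 20 arrays, with a lymphocyte limit of 7, and the 19 without ultrafine 5 as well, were chosen after seeing the data. Alternatives were no filter, brighter probes only, cyclic loess, median centring, a single probe per gene, trend with robust fitting, weights per array, a replicate block, only the compared groups, and leaving out each array. No pseudocount was needed on a log scale.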

Additional observations from a re-analysis of the deposited data

Results flagged for a closer look

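In 6 of 60 groups of arrays tested 1 array lay far from the others of its group, where chance gives about 1 in 20. These are given as values only. On coarse 1, Bdh2 read 6.47 where the other coarse arrays ran from 6.85 to 7.05, and Bsg read 8.31 where they ran from 8.83 to 9.03. On filtered air 1, Aacs read 6.75, above 5.95 to 6.20 on the other filtered air arrays, and on fine 2, Acaa1a read 8.61, below 8.71 to 8.75 on the other fine arrays. These 3 arrays carried lymphocyte RNA, whose part in the values was not tested. On ultrafine 8, Slc16a1 read 11.42, above 9.99 to 10.62 on the other ultrafine arrays, and Slc16a3 read 6.58, above 6.03 to 6.27. Bdh1 and Acat1 had no such array in any group.

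The effect of exposure differed between particle sizes for Acot1, which was higher with ultrafine than with fine particles by 0.53 (limma, adjusted p = 0.0163 over all kept probes). Bdh1 and Acat1 had no called difference between sizes.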

How the results depend on the processing

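Bdh1 and Acat1 lay below filtered air with each particle size in each fit that left out 1 array. Bdh1 ran from -0.58 to -0.39 with coarse, -0.38 to -0.16 with fine (nearest 0 without fine 2) and -0.59 to -0.33 with ultrafine particles, and Acat1 from -0.65 to -0.32 (nearest 0 without coarse 1), -0.68 to -0.51 and -0.52 to -0.24 (nearest 0 without ultrafine 7). Against filtered air the sign held under the other alternatives too, except that Acat1 with ultrafine particles was at 0.11 both under array weights and in the 19 arrays. Under array weights Acat1 in ultrafine minus fine was at 0.76 in place of 0.21. Between sizes signs turned: Bdh1 in coarse minus ultrafine went from -0.07 to 0.08 under array weights, 0.12 under the replicate block, 0.09 without ultrafine 8, 0.03 without coarse 1 or without coarse 2, 0.28 in the 20, 0.35 in the 18 and 0.13 in the 19 arrays. Acat1 in coarse minus fine went from 0.08 to between -0.05 and 0 without any 1 of coarse 3, coarse 4 and fine 4, and from -0.13 to 0.07 in coarse minus ultrafine without coarse 1. The cause was not tested.

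Counts of probes called moved more. In all arrays they were 1 with coarse, 0 with fine and 8 with ultrafine particles against filtered air, 3 for coarse minus fine, 23 for ultrafine minus fine and 0 for coarse minus ultrafine. Leaving out 1 array gave 0 to 3 for coarse, 0 to 21 for ultrafine (lowest without any 1 of 6 filtered air arrays or ultrafine 4, highest without ultrafine 7), 0 to 8 for coarse minus fine and 7 to 168 for ultrafine minus fine (highest without ultrafine 5). With no filter, 4 were called for ultrafine and 1 for coarse minus fine, and among the brighter kept probes 3 for ultrafine and 13 for ultrafine minus fine. Cyclic loess gave 3 for coarse, 13 for ultrafine, 6 for coarse minus fine and 58 for ultrafine minus fine. A trend with robust fitting gave 0 for ultrafine. Array weights gave 126 for coarse, 19 for fine, 86 for ultrafine, 55 for coarse minus fine and 815 for ultrafine minus fine. The compared groups alone gave 0 for coarse, 1 for ultrafine and 5 for ultrafine minus fine. Without the arrays that stand apart, 28, 67, 17 and 54 were called for coarse, ultrafine, coarse minus fine and ultrafine minus fine, in the 20 arrays 44, 84, 32 and 129, and in the 19 arrays 70, 81, 48 and 331.

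With the replicate block, 9 were called for coarse, 12 for ultrafine, 9 for coarse minus fine and 51 for ultrafine minus fine. For ultrafine these were 2 higher and 10 lower, against 7 higher and 1 lower without the block. Of pairs of arrays with the same number, 23 of 37 correlated above 0.1 (median 0.34), and of pairs with other numbers 98 of 235 (median 0.01). The numbers were not taken to pair the samples, though same-numbered pairs had the higher median. Not every such pair was above 0.1 (lowest -0.72), and 6 of 27 arrays correlated best with their own number. These values do not settle whether the numbers pair arrays. Under the block Bdh1 was at -0.46, -0.26 and -0.59 and Acat1 at -0.59, -0.67 and -0.27 with coarse, fine and ultrafine particles.

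The spread between arrays limits these values: with 6 to 8 arrays a group the standard errors were 0.21 to 0.29, and each gene rests on 1 probe. Median centring and 1 probe per gene changed no call of the counts by over 1.5 times.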
